A study of Rattus norvegicus with 4 samples.

Results

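The renin-angiotensin system of the carotid body (CB) was followed through 7 genes, chosen by symbol: the precursor Agt, the converting enzyme Ace, the receptors Agtr1a, Agtr1b, Agtr2 and Mas1, and the (pro)renin receptor Atp6ap2. All 7 were found among the 32883 genes listed. Glomus cells of the CB sense the oxygen of arterial blood. RNA-Seq was performed on CBs of untreated Sprague Dawley rats at postnatal day 5 (neonates) and day 21 (adults), with 2 libraries per age. Each neonatal library held the CBs of 6 pups and each adult library those of 3 rats, according to the series' design text, so a library averages animals and no single animal can be followed. Females and males were included, and part of the offspring was left to grow to day 21. The study's methods give other numbers of replicates and of pooled animals, and the labels were used here.

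In the classical pathway, renin cuts angiotensinogen, the product of Agt, to angiotensin I, and ACE trims this to angiotensin II. Angiotensin II acts on AT1 receptors, which signal through Gq proteins, phospholipase C and calcium, and on AT2 receptors, which often oppose them. The shorter peptide angiotensin 1-7 is the ligand of the Mas receptor. Components of this system are made locally in the CB as well as in the circulation, and angiotensin II is known to excite glomus cells through AT1 receptors.

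Library totals were between 36286191 and 39476110 estimated counts, which is more than the number of reads per sample in the study's text. A level of 3 counts, taken as the floor of detection, corresponded to 0.0760 CPM in the deepest library and 0.0827 CPM in the shallowest. This floor covers counting error only. CPM are counts divided by the library total and scaled to a common size, calculated from the deposited counts. Log2 fold changes are neonate over adult after TMM scaling, so a negative value means a higher level in adults. Folds printed beside CPM are after the same scaling. A gene was called at a Benjamini-Hochberg (BH) adjusted p under 0.05 in edgeR's quasi-likelihood test and a change of at least 2-fold. Mitochondrially encoded genes took 18.7% and 15.6% of the neonatal counts against 9.06% and 9.08% of the adult counts. Scaling to library size alone moved the median over all genes from -0.0029 to -0.25 on this log2 scale, and a small rise in CPM toward adults is therefore not by itself a change after TMM scaling. With 2 libraries against 2, an exact permutation test of a single value cannot give a two-sided p under 0.333. The labels call the libraries biological replicates without saying whether litters were shared, and p-values measure the spread between these pooled libraries.

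Before the members were compared, the libraries were checked against markers of the CB and of neighbouring tissue. All 13 glomus cell markers were above 1 CPM in every library, among them Th (tyrosine hydroxylase) at 917 and 781 CPM in neonates and 1517 and 1242 CPM in adults. Their sum was 9168 and 8158 CPM in neonates and 11986 and 9696 CPM in adults, with Epas1 the most abundant, and 1 of the 13 was called higher in neonates (Dbh) and 1 lower. Pth (parathyroid hormone) was highest in neonate replicate 1, at 1595 CPM, where neonate replicate 2 had 194 CPM and the adult libraries 0 counts. The 3 parathyroid markers summed to 1616 and 197 CPM in neonates and 0.026 and 0.055 CPM in adults. The 2 that were tested (Pth and Gcm2) were called higher in neonates. Parathyroid RNA thus went with age, in neonate replicate 2 as well, and its part in other differences was not tested. Red blood cell markers summed to 11644 and 6860 CPM in neonates and 3038 and 2689 CPM in adults, with Hba-a1 the most abundant and all 5 that were analysed (Hba-a1, Hba-a2, Hbb, Alas2 and Slc4a1) called higher in neonates. In a bulk sample, fewer cells of a type and less RNA per cell cannot be told apart. Values of the members without neonate replicate 1 are given where their sign changed.

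Of the 7 members, 6 reached 1 CPM in 2 or more libraries and were tested, and Mas1 did not. Agt and Ace were called lower in neonates, none was called higher, and the 3 angiotensin II receptor genes and Atp6ap2 did not pass the adjusted p. Over all 13843 genes tested, 20.8% were called, made up of 13.2% lower and 7.68% higher in neonates. Without a minimum fold the same 2 members passed, where 62.3% of all genes did. The median log2 fold change of the 6 members tested was -0.16, against -0.0029 over all genes. In CPM, 5 of the 6 had no overlap between ages, which held for 83.1% of all genes tested.

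**Figure D1:**
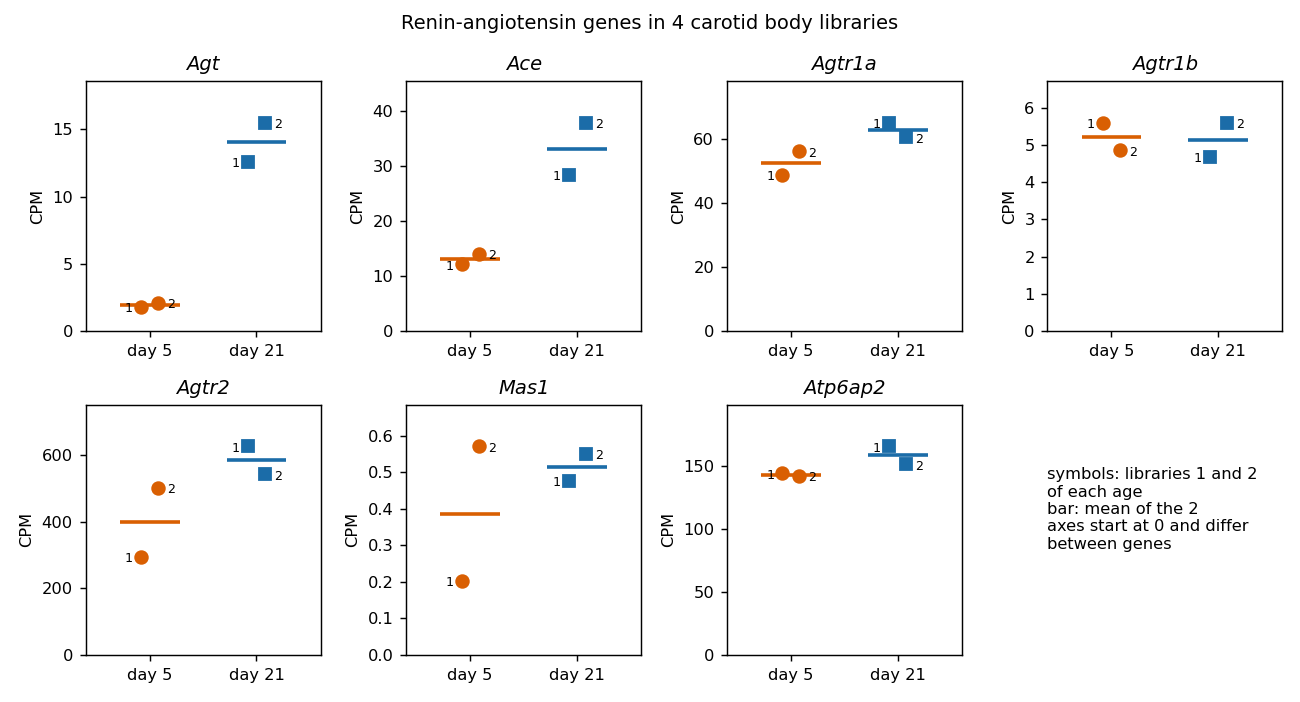
CPM of each of the 7 genes (y axis, from 0, scale differs between panels) in each library at day 5 (circles) and day 21 (squares), with a bar at the mean of the 2 libraries. Agt and Ace lie clearly lower in both neonatal libraries, from 1.82 to 2.10 CPM against 12.6 to 15.5 CPM for Agt, whereas Agtr1b and Mas1 overlap between ages.

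The precursor had the largest difference of the members. Agt (ENSRNOG00000018445) had 72 counts (1.82 CPM) in neonate replicate 1, 81 counts (2.10 CPM) in neonate replicate 2, 476 counts (12.6 CPM) in adult replicate 1 and 562 counts (15.5 CPM) in adult replicate 2. The adult libraries both lay far above the neonatal ones, and the gap between ages was wider than the spread within either. The mean was 1.96 ± 0.198 CPM in neonates and 14.0 ± 2.04 CPM in adults (SD, n = 2), 6.03-fold higher in adults after TMM scaling. The log2 fold change was -2.59 (standard error 0.22, 95% interval from -3.10 to -2.08, edgeR with BH-adjusted p = 2.4e-05), and 1.30% of all genes tested had a lower one. Left-out libraries moved it between -2.75 and -2.47.

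Agt is known to be made by hepatocytes, adipocytes and astrocytes, so markers of several cell types were read beside it. Among 142 other genes of the fixed pathway and marker lists, the pattern of Agt over the 4 libraries was nearest to that of Adipoq (adiponectin, made by adipocytes), with a Euclidean distance of 0.315 in centred log2 CPM, followed by Nr3c2 (0.568) and Gfap (0.631). Of all genes tested, 34 were as near to Agt as Adipoq, and this count, like those given for other members below, includes the named gene itself. Adipoq had 2.15 and 1.84 CPM in neonates and 12.6 and 14.4 CPM in adults, 5.68-fold higher in adults (log2 fold change -2.51, standard error 0.23). The lipid droplet genes Plin1 (-2.30) and Cidec (-1.95) were called in the same direction, and Lep (leptin) had 0 counts in both neonatal libraries and 20 and 25 counts in the adult ones.

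The other adipocyte markers did not follow. Fabp4, the most abundant of the list and also made by endothelial cells, was higher in neonates (log2 fold change 0.51, edgeR with BH-adjusted p = 0.019), and Cfd and Lipe were at 0.11 and 0.013 without passing the test. In all, 3 of the 6 adipocyte markers tested were called lower in neonates and none higher, with a list median of -0.97, and the 7 summed to 172 and 227 CPM in neonates and 183 and 238 CPM in adults. Gfap, the intermediate filament of astrocytes that is also found in sustentacular and Schwann cells, rose from 3.77 and 3.92 CPM to 15.8 and 19.7 CPM in adults (log2 fold change -1.96). It was 1 of 7 glial markers, of which 1 was called lower in neonates and 1 higher (Fabp7, 2.84), with a list median of -0.26. Without a minimum fold, 3 glial markers were lower and 2 higher in neonates, and S100b was at 0.017 without passing the test. Hepatocyte markers were low, with summed levels of 1.47 and 2.31 CPM in neonates and 0.93 and 0.91 CPM in adults, Apoa1 as the most abundant and Alb (albumin) between 5 and 19 and Apoh between 0 and 3 counts per library. Apoa1, which alone of the 5 was tested, ran the other way from Agt and was called higher in neonates (1.72). The part of adipocytes or glia in the difference of Agt was not tested.

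Proteases other than ACE can also release angiotensins. Ctsg (cathepsin G), which is known to do so, had 20 counts in neonate replicate 1 and 0 in the other libraries. Ctsd (cathepsin D), an aspartic protease of lysosomes, was expressed throughout at 195 and 192 CPM in neonates and 327 and 357 CPM in adults, and its log2 fold change of -0.57 passed the adjusted p but not 2-fold (edgeR with BH-adjusted p = 0.00035).

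Ace (ENSRNOG00000062101), which encodes the enzyme that makes angiotensin II and also breaks down bradykinin, had 480 counts (12.2 CPM) and 542 counts (14.1 CPM) in the neonatal libraries and 1077 counts (28.5 CPM) and 1377 counts (37.9 CPM) in the adult ones. Both adult libraries were above both neonatal ones, with the adult pair further apart from each other than the neonatal pair. The mean was 13.1 ± 1.36 CPM in neonates and 33.2 ± 6.68 CPM in adults (SD, n = 2), 2.14-fold higher in adults after TMM scaling. The log2 fold change was -1.10 (standard error 0.15, 95% interval from -1.43 to -0.77, edgeR with BH-adjusted p = 0.00022). Because the change is close to 2-fold, Ace was no longer called without adult replicate 2, where it was -0.91 at a BH-adjusted p of 0.00073 in edgeR.

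Ace is an enzyme of the endothelial surface. Of 6 endothelial markers tested, 4 passed the adjusted p as lower in neonates, although none reached 2-fold, with Vwf (von Willebrand factor) at -0.94 and Cdh5 (VE-cadherin), the most abundant, at 0.18 without passing the test. The endothelial list summed to 741 and 829 CPM in neonates and 1042 and 1073 CPM in adults. The genes of the fixed lists nearest to Ace were Notch3 (distance 0.172) and Des (0.193), both markers of smooth muscle and pericytes, and Pdgfra (0.217), a fibroblast marker. As near to Ace as Notch3 were 79 of all genes tested. Among the 10 smooth muscle and pericyte markers, 3 were called lower in neonates (Rgs5, Des and Notch3), none was called higher, and the most abundant, Rgs5, rose from 272 and 247 CPM to 1088 and 1062 CPM in adults. Without a minimum fold, 6 were lower and 2 higher in neonates, the latter being Kcnj8 (0.66) and Pdgfrb (0.31), both genes of pericytes, and Acta2, the actin of smooth muscle, was at -0.035 without passing the test. Without adult replicate 2, 1 of the 10 was called lower. That list summed to 1340 and 1456 CPM in neonates and 2540 and 2757 CPM in adults. The part of vessel cells in the difference of Ace was not tested.

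**Figure D2:**
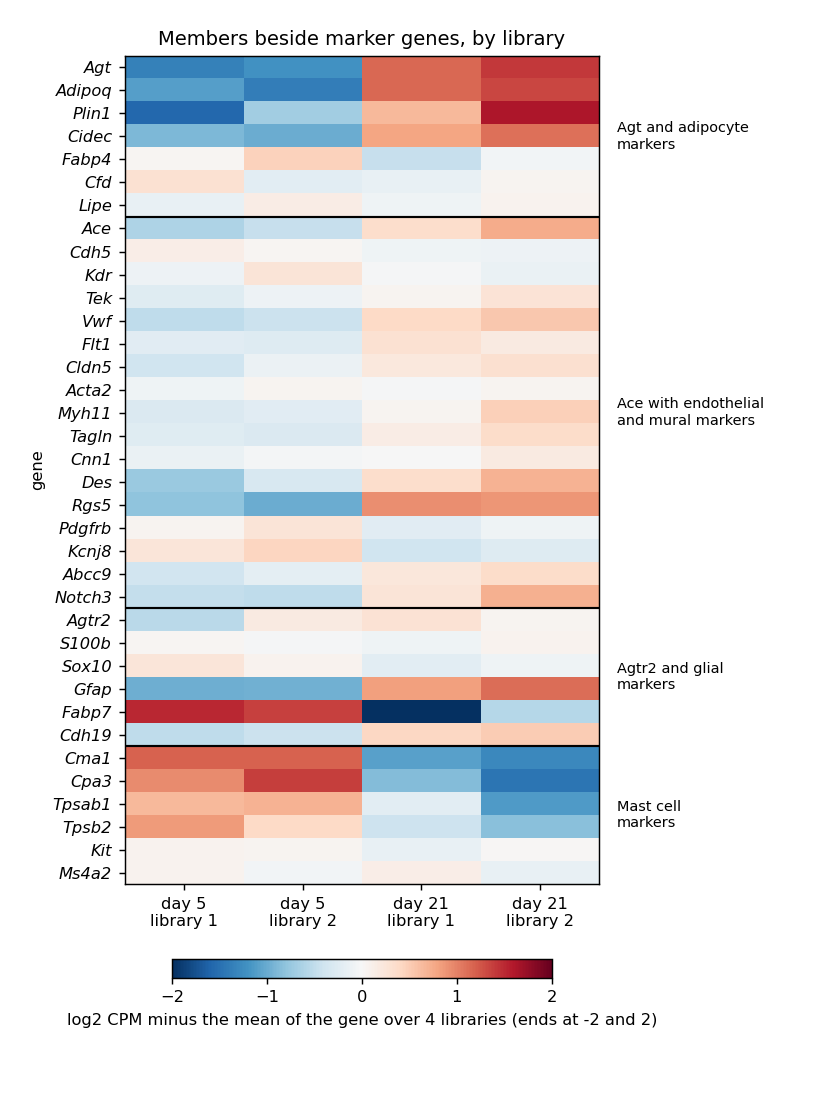
Each row is a member or a selected marker gene and each column a library, and the colour is log2 CPM (TMM, prior count 2) minus the gene's mean over the 4 libraries, red above and blue below, with the scale ending at -2 and 2. Agt runs with Adipoq, Plin1 and Cidec but not with Fabp4, Cfd or Lipe, and Agtr2 is lowest in neonate replicate 1.

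None of the angiotensin II receptor genes passed the test between ages. Rodents carry AT1 as a pair of genes, Agtr1a and Agtr1b, and their promoter windows are shown with that of Agtr2 and that of Ace, a member that was called, so that a gene called between ages and genes that were not can be set side by side. Windows run from 250 bases before to 50 after the annotated start and are from RefSeq on GRCr8, whereas the reads were mapped to Rnor_6.0. They lie at chr10:91409879-91410178 on the plus strand (Ace), chr17:34435383-34435682 on the minus strand (Agtr1a), chr2:104849213-104849512 on the minus strand (Agtr1b) and chrX:116914070-116914369 on the plus strand (Agtr2). Capitals mark matches, on either strand, to TATAA, the core of the TATA box, to CCAAT, to the GC box GGGCGG, and to ACGTG, the core bound by hypoxia-inducible factors.
Ace: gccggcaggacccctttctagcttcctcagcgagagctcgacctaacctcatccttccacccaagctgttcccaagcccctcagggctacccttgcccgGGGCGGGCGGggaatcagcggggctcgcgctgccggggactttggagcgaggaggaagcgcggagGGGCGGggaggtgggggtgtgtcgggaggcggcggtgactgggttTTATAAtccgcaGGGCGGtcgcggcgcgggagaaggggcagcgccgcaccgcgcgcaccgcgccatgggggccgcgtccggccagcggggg
Agtr1a: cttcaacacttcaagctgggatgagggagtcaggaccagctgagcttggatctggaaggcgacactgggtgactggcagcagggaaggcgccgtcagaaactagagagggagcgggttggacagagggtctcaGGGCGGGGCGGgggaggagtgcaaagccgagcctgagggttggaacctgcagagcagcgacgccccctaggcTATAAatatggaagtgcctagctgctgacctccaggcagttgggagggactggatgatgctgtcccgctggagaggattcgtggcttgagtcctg
Agtr1b: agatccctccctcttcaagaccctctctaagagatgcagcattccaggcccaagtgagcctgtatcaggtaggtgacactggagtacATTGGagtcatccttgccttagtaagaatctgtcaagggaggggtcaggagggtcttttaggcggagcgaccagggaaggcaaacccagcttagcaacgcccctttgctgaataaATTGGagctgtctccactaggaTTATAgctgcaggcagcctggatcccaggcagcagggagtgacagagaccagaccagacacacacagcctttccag
Agtr2: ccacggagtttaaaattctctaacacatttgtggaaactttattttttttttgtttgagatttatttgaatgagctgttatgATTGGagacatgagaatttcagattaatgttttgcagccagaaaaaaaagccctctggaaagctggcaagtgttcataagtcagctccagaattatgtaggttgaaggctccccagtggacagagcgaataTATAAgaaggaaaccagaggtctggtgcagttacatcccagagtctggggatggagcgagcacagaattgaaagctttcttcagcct

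A TATAA match lay 40 bases before the start in Ace, 45 before it in Agtr1a and 37 before it in Agtr2, read along the gene, and in Agtr1b the match, 26 bases before the start, was on the opposite strand. In Ace a further TATAA match on the opposite strand overlaps the first. TATAA is found in 26.2% of the 33469 windows of this length. GGGCGG, found in 33.1% of windows, occurred 4 times in Ace, with an overlapping pair, and as an overlapping pair in Agtr1a. CCAAT, found in 37.5% of windows, occurred in Agtr1b and Agtr2 on the opposite strand, and ACGTG, found in 19.3%, had no match in these 4 windows. Of the windows not shown, that of Atp6ap2 held ACGTG once, on the opposite strand and 138 bases before the start, with CCAAT and GGGCGG but without TATAA, and that of Mas1 held none of these motifs. The table of windows used here held 6 of the 7 members and not Agt. A match is a string of letters and not evidence of binding.

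Agtr1a (ENSRNOG00000018346) had 1929 and 2161 counts in neonates (48.9 and 56.1 CPM) and 2456 and 2192 counts in adults (65.0 and 60.4 CPM). The small step in CPM toward adults vanished after TMM scaling, with a log2 fold change of -0.013 (95% interval from -0.23 to 0.21, edgeR with BH-adjusted p = 0.91). Its sign turned when neonate replicate 1 (0.069) or adult replicate 1 (0.022) was left out. Agtr1b (ENSRNOG00000010640) had 221 and 187 counts in neonates (5.60 and 4.86 CPM) and 177 and 203 counts in adults (4.69 and 5.59 CPM). These overlapped between ages, with a log2 fold change of 0.27 and a wide interval from -0.27 to 0.82 (edgeR with BH-adjusted p = 0.35). All counts of both genes were whole numbers, although how reads that fit both of these similar genes were shared is uncertain. Of the fixed lists, the genes nearest to Agtr1a were Atp6v1c1 (distance 0.0567), Prep and Snap25, and those nearest to Agtr1b were Sox10 (0.104), Cyba and Cdh5. Among all genes tested, 43 were as near to Agtr1a as Atp6v1c1 and 49 as near to Agtr1b as Sox10.

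The balance within the AT1 pair was read as a share of counts. The share of Agtr1a in Agtr1a plus Agtr1b was 89.7% in neonate replicate 1 (95% exact binomial interval 88.4% to 91.0%), 92.0% in neonate replicate 2 (90.9% to 93.1%), 93.3% in adult replicate 1 (92.3% to 94.2%) and 91.5% in adult replicate 2 (90.3% to 92.6%). The ages overlapped, and the exact permutation test gave p = 0.667 (two-sided, n = 2 per age). The intervals cover counting error only, and the share is of estimated counts and was not corrected for transcript length.

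Agtr2 (ENSRNOG00000050006), the AT2 receptor that is abundant in fetal tissue and declines in many organs after birth, had 11662 counts (295 CPM) in neonate replicate 1, 19382 counts (503 CPM) in neonate replicate 2, 23694 counts (627 CPM) in adult replicate 1 and 19704 counts (543 CPM) in adult replicate 2. Neonate replicate 1 was lower than the other 3, which lay close together. The log2 fold change was -0.31 (standard error 0.20, 95% interval from -0.75 to 0.13, edgeR with BH-adjusted p = 0.19). Without neonate replicate 1 it was 0.012 (BH-adjusted p = 0.94 in edgeR) and without neonate replicate 2 it was -0.70 (BH-adjusted p = 0.00078 in edgeR), so the value turns on which neonatal library is used.

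The 7 glial markers summed to 904 CPM in neonate replicate 1, to 1719 CPM in neonate replicate 2 and to 1862 and 2018 CPM in adults, so that their sum, like Agtr2, was lowest in neonate replicate 1, and the part of glia in the spread of Agtr2 was not tested. Fabp7 was called higher in neonates and Gfap lower. S100b, a marker of sustentacular and Schwann cells, had 112 and 111 CPM in neonates and 123 and 139 CPM in adults, and Sox10, a transcription factor of glia, had 124 and 114 CPM in neonates and 109 and 120 CPM in adults. These markers did not share the low sum of neonate replicate 1, and not every marker of the list is given singly. Of the genes of the fixed lists, Ncf1, a subunit of the NADPH oxidase, was nearest to Agtr2 (distance 0.301), and 81 of all genes tested were as near. The ratio of AT1 (Agtr1a plus Agtr1b) to Agtr2 counts was 0.184 and 0.121 in neonates and 0.111 and 0.122 in adults, again with neonate replicate 1 apart and with overlap between ages (exact two-sided permutation p = 0.667, n = 2 per age).

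Mas1 (ENSRNOG00000014971), the receptor for angiotensin 1-7, was above the floor but below the filter and was not tested. It had 8, 22, 18 and 20 counts in neonate replicates 1 and 2 and adult replicates 1 and 2, or 0.203, 0.571, 0.476 and 0.551 CPM. The 95% exact Poisson interval of neonate replicate 1 ran from 0.0875 to 0.399 CPM and that of neonate replicate 2 from 0.358 to 0.865 CPM, which overlap narrowly and cover counting error only. Mrgprd, another receptor for peptides of this arm, had between 0 and 4 counts per library.

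Atp6ap2 (ENSRNOG00000003858) binds renin and prorenin and is also an accessory protein of the vacuolar ATPase, the proton pump of lysosomes and secretory granules. It had 145 and 142 CPM in neonates and 166 and 152 CPM in adults, in the order of the replicates. The adult libraries were higher in CPM, but after TMM scaling the log2 fold change was 0.099 in the opposite direction (95% interval from -0.085 to 0.28, edgeR with BH-adjusted p = 0.31), and it turned to -0.15 when scaled to library size alone. Of the fixed lists, the genes nearest to it were the pump subunit Atp6v1e1 (distance 0.0585), the glomus cell marker Rgs4 (0.0619) and the pump subunit Atp6v1h (0.0677). As near to it as Atp6v1e1 were 42 of all genes tested.

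Among the 17 vacuolar ATPase genes tested of 18, Atp6v0e2 was called lower in neonates and none higher. Atp6v0e2, an isoform of a small membrane subunit, had 16.0 and 17.6 CPM in neonates and 56.0 and 55.4 CPM in adults, 2.80-fold higher in adults (log2 fold change -1.48, standard error 0.094). Without a minimum fold, 4 were higher and 5 lower in neonates and 8 did not pass, against 31.2% higher and 31.1% lower over all genes. The list median was 0.0072, beside -0.0029 over all genes, and Atp6v1b1, the only subunit below the filter, had at most 0.127 CPM.

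**Figure D3:**
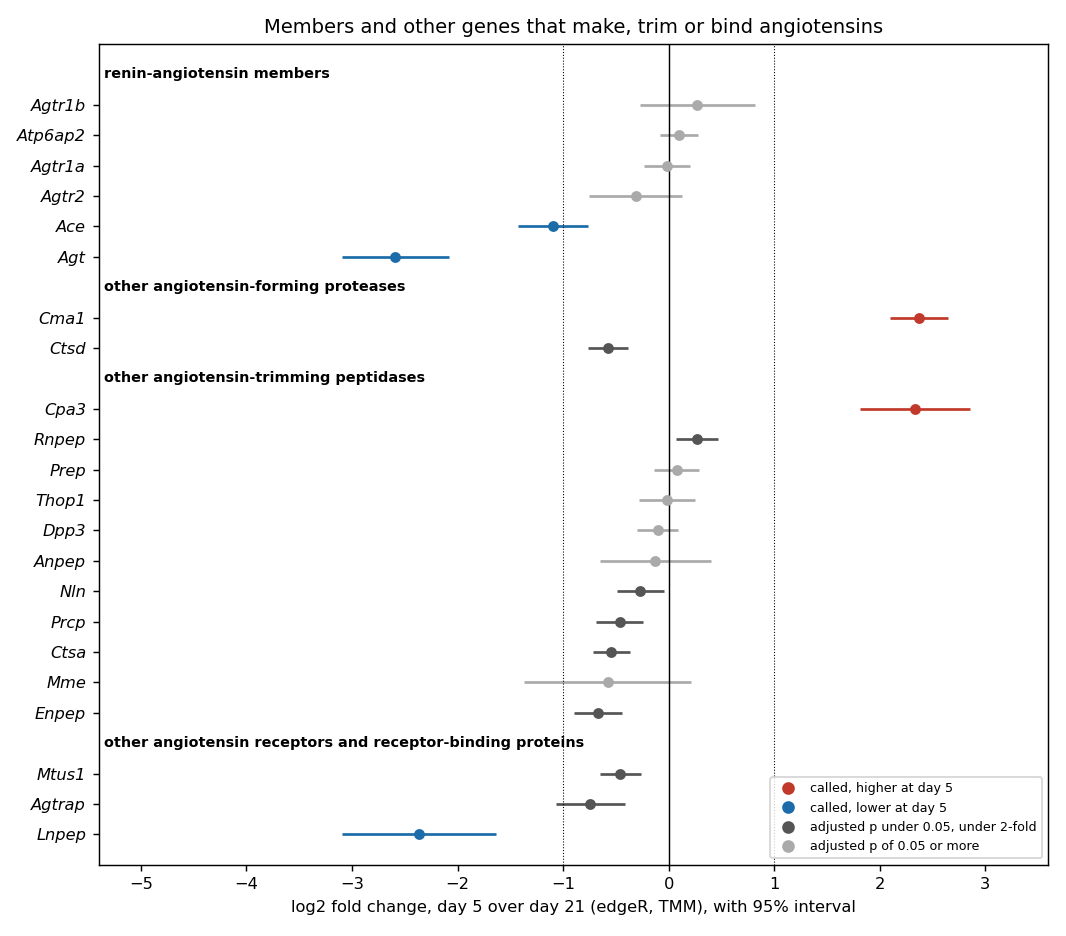
Log2 fold change, day 5 over day 21 (x axis, edgeR after TMM), with its 95% interval for each tested member and for tested genes of 3 further lists. Red and blue mark genes called higher or lower in neonates, dark grey those past the adjusted p but under 2-fold, light grey the rest, and dotted lines mark 2-fold. Cma1 and Cpa3 lie on the right, and Agt, Lnpep and Ace on the left.

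Beyond the members, 20 other genes whose products form angiotensins, trim them or bind them or their receptors were read from the same fit, and 17 passed the filter. Cma1 and Cpa3 were called higher in neonates, Lnpep was called lower, and without a minimum fold 3 were higher, 8 lower and 6 did not pass. Over all genes 20.8% were called and 62.3% passed without a minimum fold, and the counts of both directions together are near those shares. Split by direction, 31.2% of all genes were higher and 31.1% lower without a minimum fold, where here 3 were higher and 8 lower. The median log2 fold change of the 17 was -0.27, against -0.0029 over all genes.

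Cma1 (chymase), which in several species makes angiotensin II without ACE, had 31.8 and 32.9 CPM in neonates and 7.86 and 6.94 CPM in adults, 5.18-fold higher in neonates (log2 fold change 2.37, standard error 0.12, edgeR with BH-adjusted p = 2.4e-06). Cpa3, the carboxypeptidase stored with chymase in mast cell granules, had 16.7 and 23.4 CPM against 5.61 and 3.75 CPM, 5.05-fold higher in neonates (log2 fold change 2.34, edgeR with BH-adjusted p = 4.6e-05). Both genes thus ran opposite to Ace. The tryptases Tpsab1 and Tpsb2, also granule proteases, were called higher in neonates as well, at 1.27 and 1.25. Among the defining markers outside the granule, Kit was at 0.12 and Ms4a2 at 0.0099, neither past the adjusted p, and Fcer1a was below the filter at no more than 0.688 CPM. The 7 mast cell markers, of which Cma1 and Cpa3 are part and Cma1 is the most abundant, summed to 78.9 and 85.3 CPM in neonates and 36.3 and 29.1 CPM in adults. The part of mast cell number in this difference was not tested.

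Lnpep, the insulin-regulated aminopeptidase that binds angiotensin IV, had 1.22 and 2.05 CPM in neonates and 11.9 and 8.05 CPM in adults, 5.16-fold higher in adults (log2 fold change -2.37, standard error 0.32, edgeR with BH-adjusted p = 0.00025). Its counts include fractions, which arise where reads fit more than 1 gene, and its level is uncertain for that reason. The binding proteins of the AT1 and AT2 receptors, Agtrap (-0.74) and Mtus1 (-0.46), were lower in neonates at under 2-fold, and Mtus1 also has fractional counts. Of the peptidases, Enpep (aminopeptidase A, which makes angiotensin III) rose from 65.5 and 62.8 CPM to 110 and 132 CPM in adults (log2 fold change -0.67). Ctsa (-0.54), Prcp (-0.47) and Nln (-0.27) were lower in neonates by less than 2-fold. Nln did not pass the adjusted p under every alternative, and it ran from -0.51 to -0.19. Rnpep was higher in neonates (0.27, but 0.022 when scaled to library size alone), while Mme (neprilysin, -0.58), Anpep (aminopeptidase N, -0.13), Thop1 (-0.016), Prep (0.077) and Dpp3 (-0.10) did not pass. The neonatal libraries were far apart in Anpep, with 104 and 57.1 CPM against 99.2 and 111 CPM in adults, and it ran from -0.65 without neonate replicate 1 to 0.28 without neonate replicate 2. They were also apart in Mme, with 1.87 and 3.69 CPM, and it ran from -1.09 without neonate replicate 2 to -0.18 without neonate replicate 1.

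**Figure D4:**
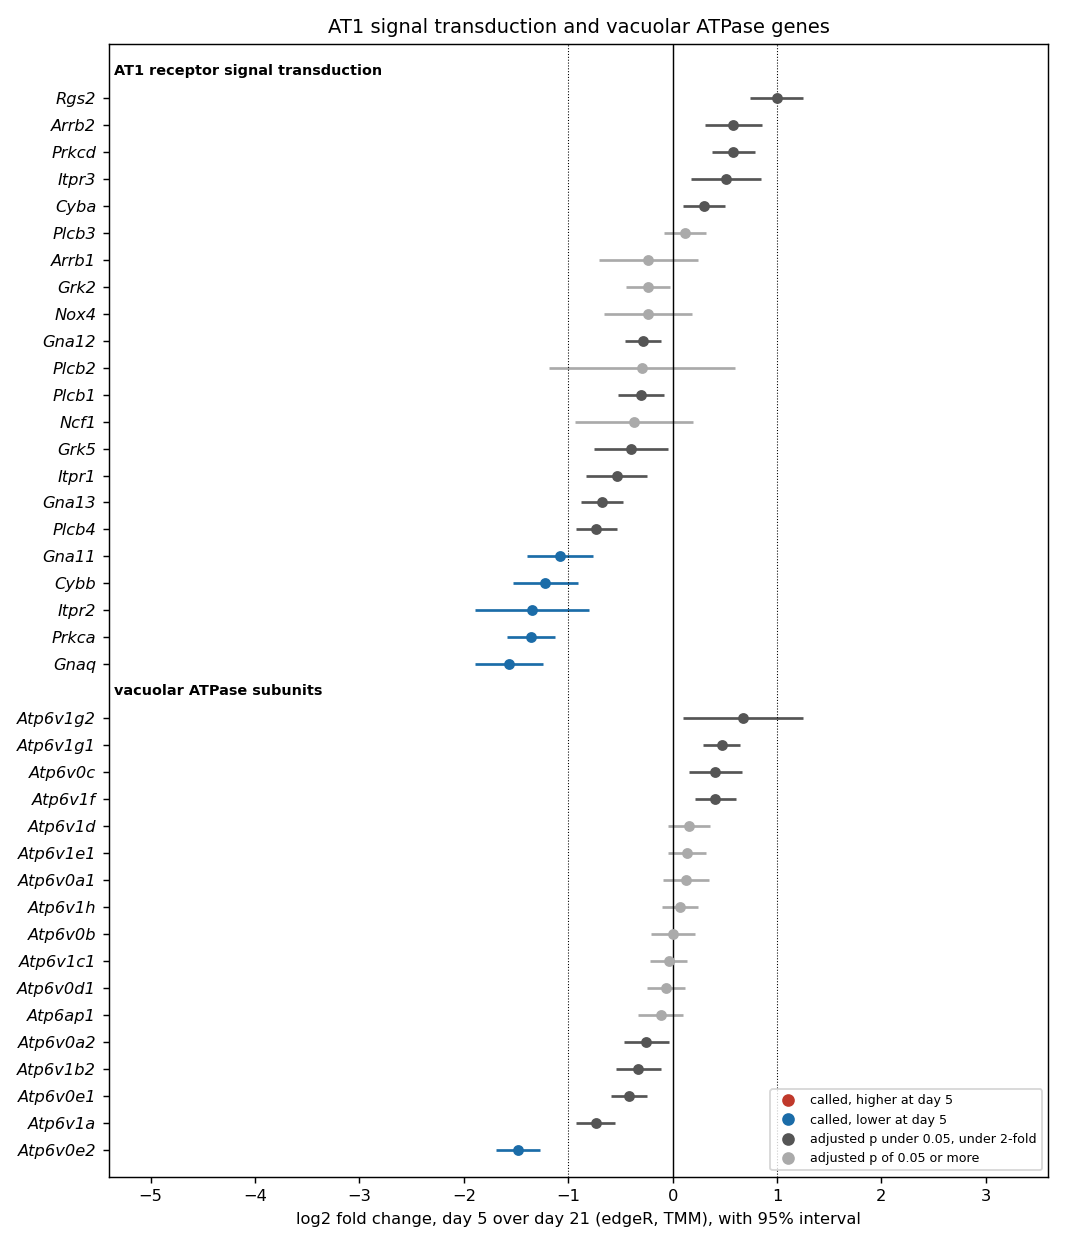
Log2 fold change, day 5 over day 21 (x axis, edgeR after TMM), with its 95% interval for 22 tested genes of AT1 receptor signal transduction and 17 tested vacuolar ATPase genes, coloured by call. Gnaq, Prkca, Itpr2, Cybb and Gna11 make up the called genes of the upper group, all lower in neonates, and Atp6v0e2 that of the lower group.

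Downstream of the AT1 receptor, whose own genes did not pass the test, 5 of 22 tested signalling genes were called lower in neonates and none higher, where 13.2% of all genes were called lower. Gnaq, the alpha subunit of Gq, had 6.94 and 8.36 CPM in neonates and 24.6 and 29.1 CPM in adults, 2.96-fold higher in adults (log2 fold change -1.57, standard error 0.14, edgeR with BH-adjusted p = 3.3e-05). Its relative Gna11 was at -1.08, the kinase Prkca (protein kinase C alpha) at -1.36, the calcium release channel Itpr2 at -1.35 and Cybb, the catalytic subunit of the phagocyte NADPH oxidase, at -1.22. These genes serve many receptors besides AT1. Cybb is also made by macrophages, of whose 7 markers 3 were called lower in neonates (Cd163, Csf1r and Adgre1), with summed levels of 69.4 and 82.2 CPM in neonates and 153 and 151 CPM in adults and Csf1r the most abundant, and the part of macrophages was not tested. Without a minimum fold, 11 of the 22 were lower and 5 higher in neonates, where 31.1% of all genes were lower and 31.2% higher. Among the higher ones was Rgs2, which limits Gq signalling and is named for its value, with 23.7 and 23.9 CPM in neonates and 14.3 and 13.9 CPM in adults. Its log2 fold change of 0.997 (edgeR with BH-adjusted p = 8.5e-05) was just short of 2-fold, and it was called higher without neonate replicate 2 and with TMM factors from genes other than mitochondrial and ribosomal protein genes.

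**Figure D5:**
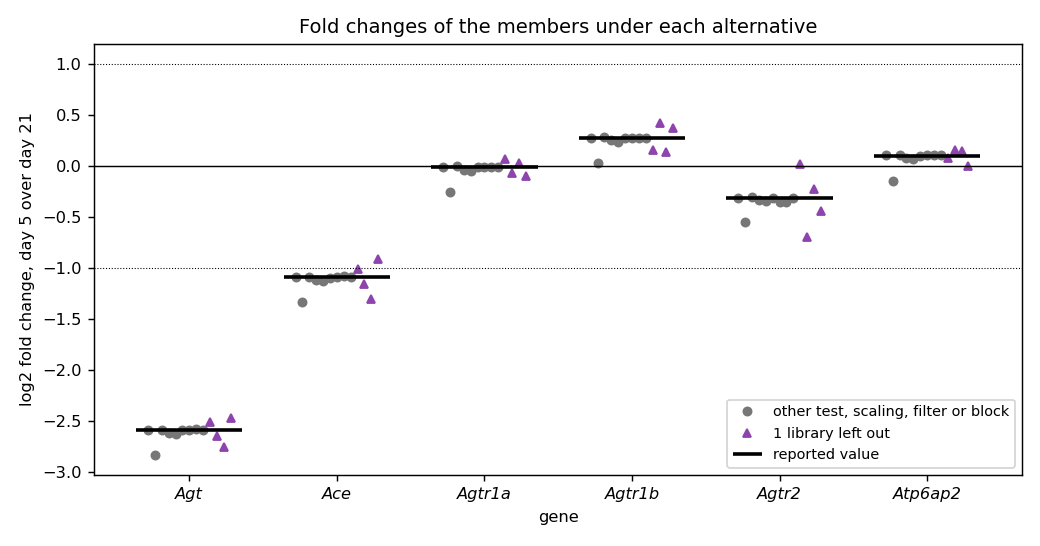
Log2 fold change, day 5 over day 21 (y axis), of the 6 tested members (x axis) as reported (black bars) and under 13 alternatives each, with triangles for fits that leave out 1 library. Agt stays between -2.84 and -2.47 and Ace between -1.34 and -0.91, Agtr2 spreads from -0.70 to 0.012, Agtr1b lies between 0.025 and 0.41, and Agtr1a and Atp6ap2 lie on both sides of 0.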

How the data were processed

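The authors trimmed the reads, mapped them with STAR to the rat reference Rnor_6.0 and quantified genes with Salmon (version 1.5.2 per the submitters' processing notes). The deposited values are estimated counts per gene, with no normalization or filter. They were rounded to whole numbers. The 7 members and all gene lists were chosen with earlier results of these data known.

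With R 4.3.3, edgeR 4.0.16, limma 3.58.1 and DESeq2 1.42.0, 636 genes annotated as other than protein-coding in RefSeq were removed by symbol or synonym, genes reaching 1 CPM in 2 or more libraries were kept, and ages were compared without covariates by TMM scaling and the quasi-likelihood test of edgeR. Alternatives changed the scaling, filters, minimum fold, test (limma-voom, DESeq2) or block, or left out a library, and those for marker lists were added after the data were seen. The standard error is the log2 fold change divided by the square root of F. The procedure was tested on simulated data. Called list genes were named, at most 5 per list, and others for their known role or value, after their values were seen. Ratios planned per coding length use counts, since no lengths were used here. Cyp11b2, Pecam1, Col1a2, Myh1 and Myh2 were not analysed here, and some list genes and a planned ratio are not reported here. Thyroid, skeletal muscle, fibroblast and sympathetic neuron markers were also read. In the labels, same-numbered libraries of the ages share only a number, and whether they were paired is not known.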

Additional observations from a re-analysis of the deposited data

How the results depend on the processing

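Agt kept its direction and its call under all 13 alternatives, and Ace kept its direction under all 13 and its call under 12. Members called ranged from 1 to 2 as single libraries were left out, other pathway genes called higher stayed at 2, those called lower ranged from 1 to 2 (Mme was added without neonate replicate 2), and all genes called ranged from 2257 to 2946, against 2885 as reported. Without a minimum fold change, 8 pathway genes were lower in neonates and 8625 genes differed in all. With a mean of at least 5 CPM, 1824 genes were called, of fewer tested. Scaled to library size alone, 704 genes were called higher and 2549 lower in neonates, so that 21.6% of the calls were higher in place of 36.8%, Atp6ap2 turned to -0.15, and Agtr2 was at -0.55 with a BH-adjusted p of 0.046 in edgeR. Without neonate replicate 1, Agtr1a was at 0.069 and Agtr2 at 0.012, and without adult replicate 1 Agtr1a was at 0.022. Leaving out single libraries, Agtr1a ranged from -0.10 to 0.069 and Agtr2 from -0.70 to 0.012. The cause was not tested.

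Deviations of same-numbered libraries from their age's mean had a correlation of -0.016 across genes. With 2 libraries per age, the deviations within an age mirror each other. The value therefore cannot decide whether same-numbered libraries shared litters or handling. With the replicate number as a block, 2 members and 2938 genes were called, and Agtr2 passed the adjusted p at -0.35 (0.0096 in edgeR) while staying under 2-fold. Without a filter on low counts, Mas1 was at -0.20 with a BH-adjusted p of 0.85 in edgeR. Depth limits what can be said of Mas1 and Mrgprd.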

Other observations

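The aldosterone arm lies at the far end of the circulating pathway, where angiotensin II drives aldosterone release from the adrenal cortex. Nr3c2, the mineralocorticoid receptor, was called lower in neonates, with 0.633 and 0.831 CPM against 7.73 and 6.53 CPM in adults, 8.21-fold higher in adults (log2 fold change -3.04, standard error 0.31, edgeR with BH-adjusted p = 5.0e-05). Its target Sgk1 was also lower in neonates, at 129 and 158 CPM against 248 and 232 CPM (-0.50), under 2-fold. Hsd11b2, the enzyme that shields the receptor from glucocorticoids, was higher in neonates (0.69, edgeR with BH-adjusted p = 0.029), also under 2-fold. Hsd11b2 did not pass the adjusted p under every alternative, and it ran from 0.45 to 0.80.

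In the kinin arm, whose peptides ACE breaks down, Bdkrb2 (the B2 receptor) had 18.8 and 16.9 CPM in neonates and 24.0 and 29.5 CPM in adults, and its log2 fold change of -0.34 did not pass (edgeR with BH-adjusted p = 0.051). Bdkrb1 had at most 5 counts in a library, and Kng1, the precursor of the kinins, at most 2. The count ratio of Agt to Ace, added after the data were seen, was 0.150 and 0.149 in neonates and 0.442 and 0.408 in adults, a ratio that does not depend on scaling (exact two-sided permutation p = 0.333, n = 2 per age, the smallest possible).

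Other marker lists gave the following background. Of 5 fibroblast markers, Dcn was called lower in neonates and none higher, with Col3a1 the most abundant. Of 7 sympathetic neuron markers, 4 were called higher in neonates (Npy, Nefm, Gal and Nefl), with Snap25 the most abundant. Of 4 skeletal muscle markers tested, Myh3, the most abundant, was called lower. None of the 3 thyroid markers passed the filter.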
